A study of Panonychus citri with 4 samples.

Results

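The miR-92 family of the citrus red mite, Panonychus citri, a spider mite that feeds on citrus leaves, is described here over 4 small RNA libraries. Its members are all rows whose deposited miRNA name is miR-92, alone or with a letter or an arm suffix, which gave 13 of the 594 names in the 4 libraries. The embryo library listed 10 of its 262 names under miR-92, the larva library 5 of 273, the nymph library 8 of 346 and the adult library 3 of 270. Each stage had 1 library from pooled whole animals, with over 3000 embryos, 2500 larvae, 1500 nymphs of 2 nymphal kinds (protonymphs and deutonymphs) and 1000 adults. The labels name no treatment, strain, sex or age within a stage. The design text gives the comparison of small RNAs between stages as the aim.

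MicroRNAs guide Argonaute proteins to messenger RNAs, mainly through pairing of the seed, which is bases 2 to 8 of the mature strand. The miR-92 family is shared by arthropods, nematodes and vertebrates, and its mature strand is usually the 3p arm. In Drosophila miR-92a and miR-92b act in neural stem cells and miR-92b also in muscle, in Caenorhabditis elegans the relative miR-235 holds progenitor cells quiescent during starvation, and in vertebrates miR-92a belongs to the miR-17/92 cluster.

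The sequences deposited beside the names differed mainly at position 10, counted from 1 at the 5′ end of miR-92-3p, and at their ends. The 5 shown here give the bases seen at position 10 and 1 shifted start, with bases 2 to 8 in capitals and T for U. Not all of them are abundant.
miR-92-3p: tATTGCACtcgtcccggcct
miR-92f-3p: tATTGCACtagtcccggcct
miR-92h-3p: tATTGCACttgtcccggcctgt
miR-92a-3p: tATTGCACttgtcccggcct
miR-92b-3p: aTTGCACTcgtcccggcct
Relative to miR-92-3p, miR-92f-3p carried C10A, and miR-92h-3p and miR-92a-3p carried C10T. The name miR-92b-3p had no substitution but started at base 2 of miR-92-3p, so its own bases 2 to 8 were moved by 1 position.

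Names whose sequences matched at every base of an overlap of 17 bases or more were joined into sequence groups, called by the name with the most reads, which gave 7 groups from the 13 names. The miR-92-3p group held miR-92-3p, miR-92b-3p and miR-92i-3p. The miR-92f-3p group held miR-92f-3p, miR-92b, miR-92d-3p and miR-92j-3p, and the miR-92h-3p group held miR-92h-3p and miR-92a-3p. The names miR-92a (T9C and C10A), miR-92c-3p (C18T), miR-92e-3p (G5A) and miR-92g (T3C) stood alone. The seed of miR-92-3p served as the reference, and 6 of the 13 names had it at their own bases 2 to 8. These names, miR-92-3p itself among them, held 99.9% of miR-92 reads in embryos, 99.7% in larvae, 99.2% in nymphs and all 77 in adults. Since miR-92-3p matches its own seed, these shares are no check of the family label. The letters GTCCCGGCCT were present in 12 of the 13 names, all but miR-92c-3p, and lengths were 18 to 22 nucleotides.

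The libraries held 248256, 1012278, 1258698 and 438409 listed miRNA reads from embryo to adult, of library totals of 5957910, 5941043, 5944776 and 5918115 reads. Levels per 1000000 listed reads are called listed RPM and levels per 1000000 of the library total library RPM. With 1 library per stage there was no replicate spread and no test of stages, and the 95% Clopper-Pearson intervals in parentheses take in counting error alone. PCR copies of a molecule are counted as separate reads, so reads are not independent. The values compare these libraries, and in whole animals fewer cells holding a miRNA and less of it per cell cannot be told apart.

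The family was abundant in embryos and scarce in the later stages. All miR-92 rows together had 51026 reads in embryos, 1579 in larvae, 1010 in nymphs and 77 in adults. This was 20.6% of listed reads in embryos (20.4 to 20.7), 0.156% in larvae (0.148 to 0.164), 0.0802% in nymphs (0.0754 to 0.0853) and 0.0176% in adults (0.0139 to 0.0220). In library RPM the family stood at 8564 in embryos (8491 to 8639), 265.8 in larvae (252.8 to 279.2), 169.9 in nymphs (159.6 to 180.7) and 13.0 in adults (10.3 to 16.3). The order embryo, larva, nymph, adult was the same on both scales, with no overlap of the intervals of neighbouring stages.

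The leading row, miR-92-3p, had 49418 reads in embryos, 1378 in larvae, 614 in nymphs and 28 in adults. Its group ranked 2 of 212 groups in embryos, 21 of 225 in larvae, 36 of 290 in nymphs and 62 of 224 in adults. In the embryo the group took 19.9% of listed reads (19.8 to 20.1), below miR-315 with 32.1% (31.96 to 32.3). The muscle miRNA miR-1 followed with 19.6% (19.5 to 19.8), so that the intervals of miR-92-3p and miR-1 overlapped at their ends, and miR-10-3p had 6.57% (6.48 to 6.67).

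The second row, miR-92f-3p, had 1510 reads in embryos, 185 in larvae, 375 in nymphs and 43 in adults. Its order of stages differed from that of miR-92-3p, with the nymph above the larva. The group stood at 6175 listed RPM in embryos (5871 to 6491), 182.8 in larvae (157.4 to 211.1), 302.7 in nymphs (273.1 to 334.7) and 98.1 in adults (71.0 to 132.1). In library RPM these levels were 257.3, 31.1, 64.1 and 7.27 from embryo to adult. On both scales the levels ran embryo, nymph, larva, adult from the highest, and no intervals of neighbours in that order overlapped.

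The miR-92h-3p group was low at every stage. It had 15 reads in embryos, all of miR-92a-3p, and 12 in larvae, 13 in nymphs and 6 in adults, of which 11, 11 and 6 were miR-92h-3p, the variant that is longer by 2 bases at the 3′ end. In library RPM the group stood at 2.52 in embryos (1.41 to 4.15), 2.02 in larvae (1.04 to 3.53), 2.19 in nymphs (1.16 to 3.74) and 1.01 in adults (0.372 to 2.21), with all 4 intervals overlapping. In listed RPM the values were 60.4 (33.8 to 99.7), 11.9 (6.13 to 20.7), 10.3 (5.50 to 17.7) and 13.7 (5.02 to 29.8). The embryo thus stood above the rest on that scale alone. Whether the few reads of this group came from the mite itself was not tested.

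**Figure D1:**
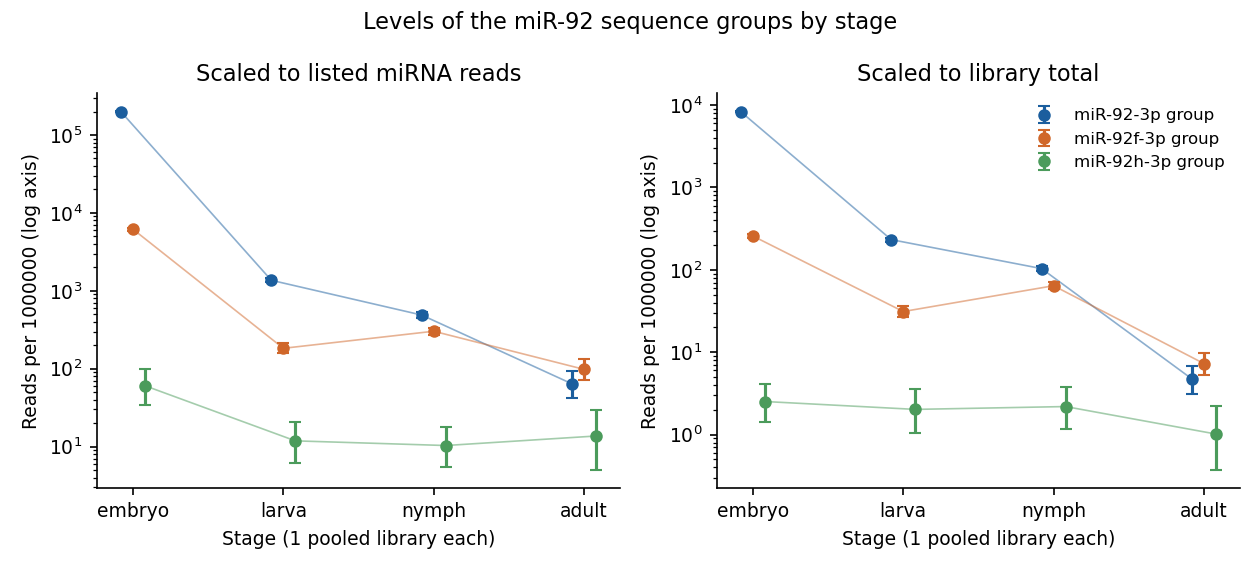
Levels of the miR-92-3p, miR-92f-3p and miR-92h-3p groups in reads per 1000000 (log axis) by stage, scaled to listed miRNA reads (left) and to the library total (right); points are single pooled libraries and bars are 95% Clopper-Pearson intervals of counting error. The miR-92-3p group falls at each step to 28 adult reads, the miR-92f-3p group is higher in nymphs than in larvae, and the miR-92h-3p group stays between 1.01 and 2.52 library RPM.

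The remaining members were variants with few reads. The end variant miR-92b-3p had 40 reads in embryos and 4 in larvae, and no row in nymphs and adults. Of the end variants of miR-92f-3p, miR-92b had 18 reads and miR-92d-3p 5 reads in embryos, and in nymphs miR-92d-3p had 2 and miR-92j-3p 4. The names miR-92e-3p and miR-92c-3p were listed in embryos alone with 10 and 8 reads, miR-92g had 1 read in embryos and 1 in nymphs, miR-92a 1 in embryos and miR-92i-3p 1 in nymphs. At their embryo shares of the miR-92-3p row, 0.0202% and 0.0162%, miR-92e-3p and miR-92c-3p would have given 0.279 and 0.223 reads in larvae, so a lower share in larvae was not detectable at this depth.

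Each later library was set against an earlier one by the ratio of listed RPM. A name or group was tested if the libraries compared held 30 or more of its reads, and it was called if the whole exact conditional binomial interval of its ratio was beyond 2-fold in either direction. Only 2 of the 7 groups, miR-92-3p and miR-92f-3p, reached 30 reads in any comparison, and both did so in all 4. By name, miR-92-3p and miR-92f-3p did so in all 4 and miR-92b-3p in 2, and the other 10 of the 13 names in 0. Scaling to the library totals multiplied every listed RPM ratio by 4.09 for larva over embryo, by 1.24 for nymph over larva, by 0.350 for adult over nymph and by 1.78 for adult over embryo.

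Between larva and embryo both tested groups were lower in larvae. The family had 1560 listed RPM in larvae and 205538 in embryos, which was 131.8-fold lower in larvae (125.3 to 138.6), or 32.2-fold with the library totals (30.6 to 33.9). The background of lower calls was high in listed RPM, with 34 of 76 groups or 44.7%, and low with the library totals, with 3 of 76 or 3.95%, and both miR-92 groups were among those called on either scale. From the lowest, miR-92-3p ranked 1 and miR-92f-3p ranked 3 of the 76 groups by this ratio, with log2 ratios of -7.19 and -5.08 against a median of -1.02 over all 76. By name, miR-92b-3p was the third member with enough reads, 40.8-fold lower in larvae (14.7 to 156.9), where 45 of 104 names or 43.3% were called lower. With the library totals miR-92b-3p was 9.97-fold lower (3.60 to 38.4), where 13 of 104 names or 12.5% were called lower.

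Between nymph and larva the main groups had ratios on opposite sides of 1, and only that of miR-92-3p was called. The miR-92-3p group had 488.6 listed RPM in nymphs and 1365 in larvae, a ratio of 0.358 (0.325 to 0.394), and was called lower, as were 3 of 86 groups or 3.49% in all, and 2 of 86 or 2.33% with the library totals, where its ratio was 0.445 (0.404 to 0.489). The miR-92f-3p group had 302.7 listed RPM in nymphs and 182.8 in larvae, a ratio of 1.66 (1.39 to 1.99), which was not called, beside 11 of 86 groups or 12.8% that were called higher. With the library totals its ratio of 2.06 (1.72 to 2.47) was also not called, beside 17 of 86 groups or 19.8%. Their log2 ratios of -1.48 and 0.73 stood at ranks 3 and 61 of 86 groups, around a median of 0.38. The family sum had a ratio of 0.514 (0.475 to 0.557) and no call in listed RPM.

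Between adult and nymph both groups were lower in adults again. The family had 175.6 listed RPM in adults and 802.4 in nymphs, 4.57-fold lower in adults (3.62 to 5.84). With the library totals it was 13.1-fold lower (10.4 to 16.7). The log2 ratios of miR-92-3p and miR-92f-3p were -2.94 and -1.63, at ranks 1 and 8 of 86, where 9 of 86 groups or 10.5% were called lower. With the library totals 39 of 86 groups or 45.3% were called lower, so that on that scale a lower call was common.

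Between adult and embryo, the ends of the life cycle, both groups were lower in adults. The family had 175.6 listed RPM in adults and 205538 in embryos, 1170-fold lower in adults (936.2 to 1483), and with the library totals 658.2-fold lower (526.6 to 834.2). The miR-92-3p group was 3119-fold lower in adults (2158 to 4695, 28 adult reads) and miR-92f-3p 63.0-fold (46.5 to 87.4, 43 adult reads). They ranked 1 and 3 of 72 groups, of which 7 or 9.72% were called lower in listed RPM and 4 or 5.56% with the library totals. The name miR-92b-3p had no adult row against 40 embryo reads. Set to 3 adult reads, it was 23.5-fold lower in adults in listed RPM and 13.2-fold with the library totals. These values have no interval and leave out the counting error of the 40 embryo reads. It was called lower in listed RPM, as were 17 of 99 names or 17.2% in all.

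**Figure D2:**
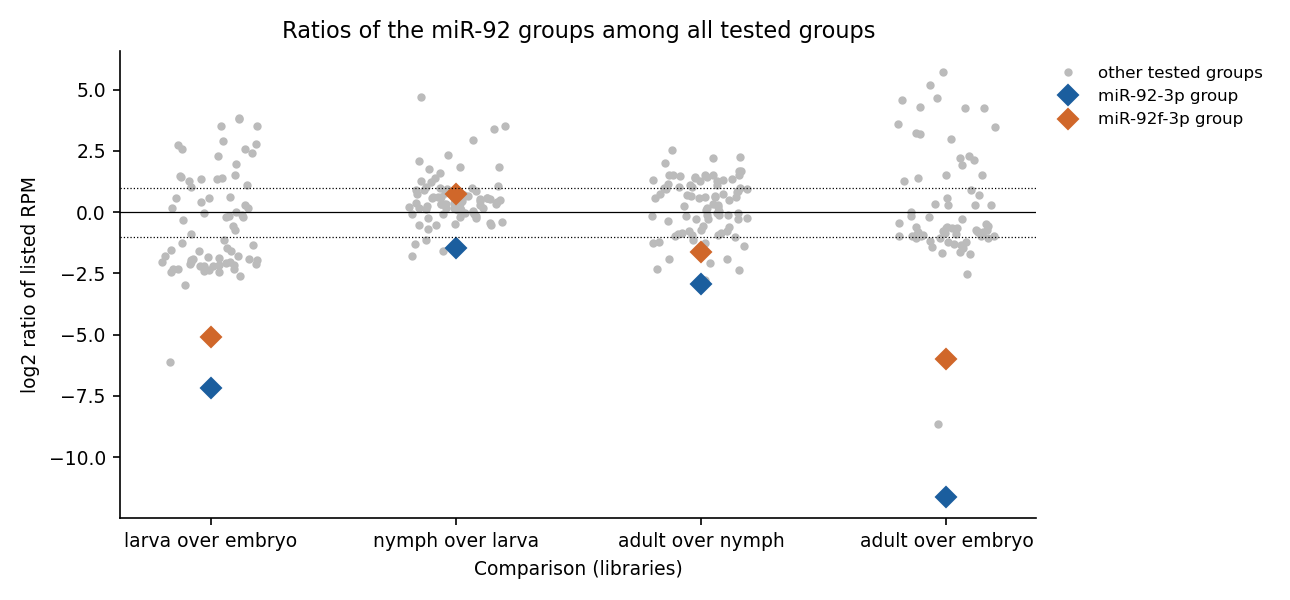
log2 ratios of listed RPM for all tested sequence groups in 4 comparisons; diamonds are the miR-92-3p and miR-92f-3p groups, grey points the other groups, and dotted lines mark 2-fold. The miR-92-3p group is at -7.19, -1.48, -2.94 and -11.61 and the miR-92f-3p group at -5.08, 0.73, -1.63 and -5.98 from left to right.

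The makeup of the family moved from the miR-92-3p group to the miR-92f-3p group along the stages. These shares lie within a library and do not depend on scaling. The miR-92-3p group held 96.9% of miR-92 reads in embryos (96.8 to 97.1), 87.5% in larvae (85.8 to 89.1), 60.9% in nymphs (57.8 to 63.9) and 36.4% in adults (25.7 to 48.1). The miR-92f-3p group held 3.004% in embryos (2.86 to 3.16), 11.7% in larvae (10.2 to 13.4), 37.7% in nymphs (34.7 to 40.8) and 55.8% in adults (44.1 to 67.2). The miR-92h-3p group held 0.0294% in embryos (0.0165 to 0.0485), 0.760% in larvae (0.393 to 1.32), 1.29% in nymphs (0.687 to 2.19) and 7.79% in adults (2.91 to 16.2). The adult values rest on 77 reads, and there the intervals of the miR-92-3p and miR-92f-3p groups overlapped.

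**Figure D3:**
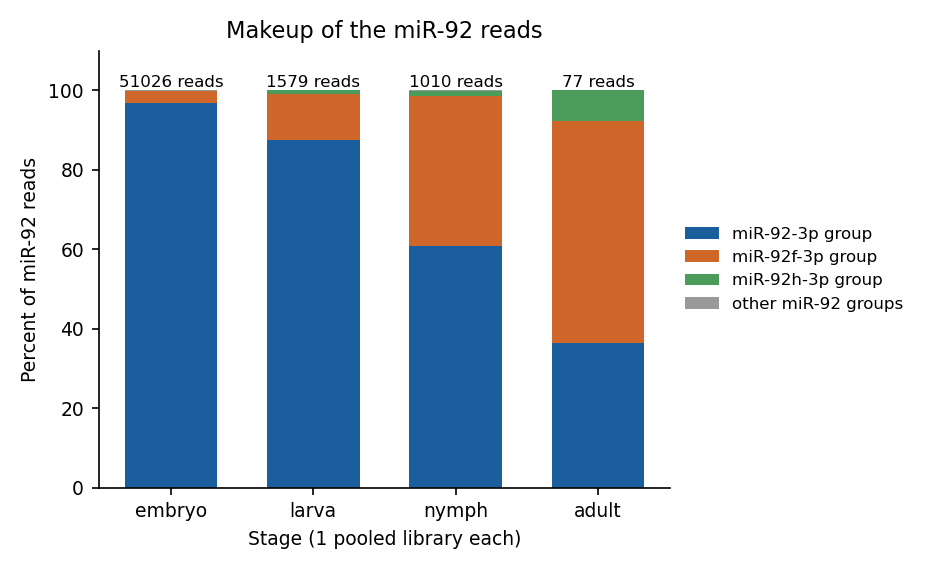
Percent of miR-92 reads held by each sequence group in the 4 libraries, with the number of miR-92 reads above each bar; each bar is 1 pooled library. The miR-92f-3p share is 3.004%, 11.7%, 37.7% and 55.8% from embryo to adult.

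Read against miR-92-3p within the same library, miR-92f-3p had 0.0310 reads per miR-92-3p group read in embryos, 0.134 in larvae, 0.620 in nymphs and 1.54 in adults. This ratio was 4.32-fold higher in larvae than in embryos (exact conditional interval 3.65 to 5.08), 4.63-fold higher in nymphs than in larvae (3.77 to 5.68) and 2.48-fold higher in adults than in nymphs (1.48 to 4.22). Between adult and embryo the change was 49.5-fold (30.0 to 83.0).

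Among the abundant miRNAs of the embryo, miR-92-3p was the only name with listed neighbours differing by a single base. Of the 10 names with the most embryo reads, the other 9 had 0 names of the same length with 1 substitution, and miR-92-3p had 6. Among these 6 was miR-235-3p, a name outside miR-92. The largest of the 6 was miR-92f-3p, at 3.06% of the miR-92-3p row. In the other 3 libraries leading names also had such neighbours, with 3 each for miR-34-5p and miR-1a-3p in larvae and in nymphs. The largest neighbour of each of the 10 leading names there was at most 0.2504% of it, for miR-184a-3p in nymphs. In embryos miR-92e-3p and miR-92c-3p were likewise low, at 0.0202% and 0.0162% of the miR-92-3p row. These neighbours are limited to names that the deposited lists carry.

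By the listed names, the 5′ end was the same in most reads of both main groups. A read with another start is seen only where the lists give that sequence its own name. Variants starting after base 1 made up 0.0809% of the miR-92-3p group in embryos (40 of 49458 reads, 0.0578 to 0.110), 0.289% in larvae (4 of 1382, 0.0789 to 0.739) and 0.163% in nymphs (1 of 615, 0.00412 to 0.903). In the miR-92f-3p group they made up 1.5% in embryos (23 of 1533, 0.953 to 2.24) and 1.57% in nymphs (6 of 381, 0.580 to 3.40). The embryo intervals of the 2 groups did not overlap. In the larva 0 of 185 miR-92f-3p group reads were of this kind, with an upper interval end of 1.97%. In adults 0 of 28 and 0 of 43 reads of the 2 groups had upper ends of 12.3% and 8.22%.

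Names outside miR-92 with the same seed were few and low. The list of family numbers known to share the seed and of names sharing it in these files held 4 names, of which miR-25-5p is the opposite arm and lacks the seed. The other 3 are shown for their seed in capitals.
miR-25: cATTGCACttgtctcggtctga
miR-235-3p: tATTGCACtcgccccggcct
miR-363: aATTGCACggtatccatctgcga
The name miR-235-3p, called after the nematode relative, differed from miR-92-3p by T12C alone and had 5 reads, all in embryos. The name miR-363 had 3 reads in larvae. Only miR-25 was tested, with 28 reads in embryos, 21 in larvae, 37 in nymphs and 28 in adults. It was called lower in larvae than in embryos in listed RPM (ratio 0.184, 0.0993 to 0.336), as were 43.3% of all names on that scale. It was called in no other comparison, nor with the library totals, where its larva over embryo ratio was 0.752 (0.406 to 1.37). In library RPM miR-25 stood at 4.70, 3.53, 6.22 and 4.73 from embryo to adult. Whether the reads of miR-25, miR-235-3p and miR-363 came from the mite itself was not tested.

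Names of the vertebrate cluster partners (miR-17, miR-18, miR-19, miR-20, miR-93 and miR-106) numbered 14, and 0 of them had 30 reads in any comparison, the highest count being 8. Whether these few reads came from the mite was likewise not tested. The list of early-embryo and embryo-linked names (miR-309, miR-3, miR-286, miR-279, miR-996 and miR-315) had 5 names with a row. Of these, 3 names in 2 sequence groups were tested between larva and embryo. All 3 were called lower in larvae in listed RPM, beside 43.3% of all names, and 1 of the 3, miR-315, with the library totals, beside 12.5%. The list was chosen with miR-315 and miR-279 known to be high in these embryos, so its count is a description and no independent sign of direction.

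The stage profile nearest to miR-92-3p outside the family was that of miR-315, a miRNA that activates Wingless signalling when overexpressed in Drosophila. Likeness was measured as the Euclidean distance between log2 listed RPM profiles over the 4 libraries, each centred on its own mean, which does not depend on the scaling, among groups with at least 30 reads in all. The distance of miR-315 was 2.12 log2 units, the smallest of all groups set against it, whose median was 8.01. Groups without a row in a library were set to 3 reads there, and their distances enter that median. The groups named here had a row in every library. The next outside the family were miR-279-3p at 6.75, miR-263a-3p at 6.80, miR-30d-5p at 6.90 and miR-125-5p at 7.05, much farther than miR-315, and miR-92f-3p itself stood at 4.30. Of these, miR-263a-3p, miR-30d-5p and miR-125-5p had at most 18 reads in any library, so their profiles rest on few reads.

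The miR-315 group had 79795 reads in embryos, 4659 in larvae, 2665 in nymphs and 352 in adults. It lost less than miR-92-3p at each step, with 1.61 miR-315 reads per miR-92-3p group read in embryos, 3.37 in larvae, 4.33 in nymphs and 12.6 in adults. That ratio was 2.09-fold higher in larvae than in embryos (1.97 to 2.22), 1.29-fold higher in nymphs than in larvae (1.15 to 1.43) and 2.90-fold higher in adults than in nymphs (1.95 to 4.47). Against miR-92f-3p the ratio of miR-315 was 2.07-fold lower in larvae than in embryos (1.76 to 2.42) and 3.60-fold lower in nymphs than in larvae (2.99 to 4.34), and between adult and nymph it had a ratio of 1.17 (0.834 to 1.68).

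**Figure D4:**
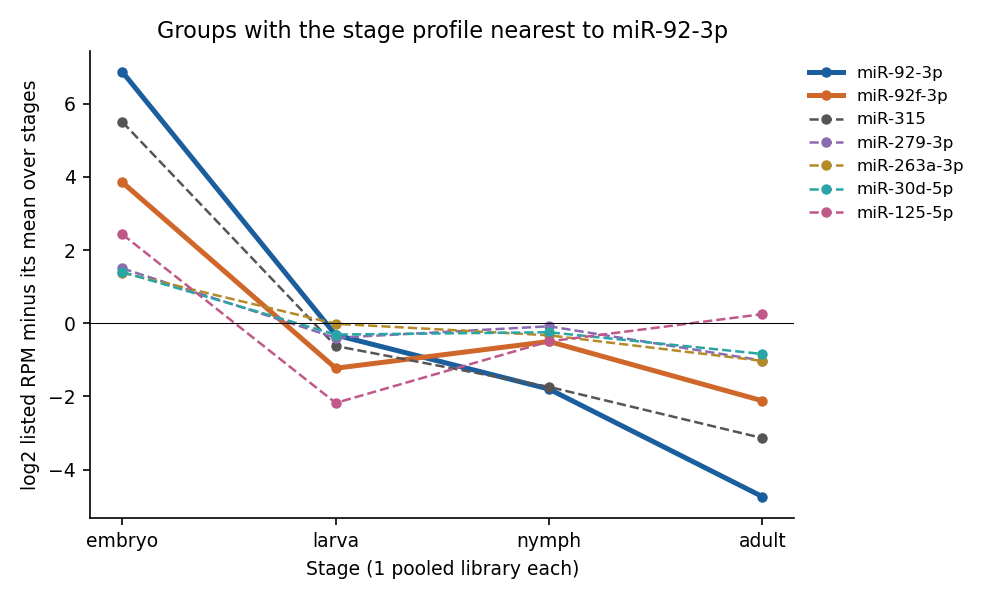
log2 listed RPM minus its own mean over the 4 stages for the miR-92-3p and miR-92f-3p groups (solid) and the 5 groups outside the family nearest to miR-92-3p (dashed); each point is 1 pooled library. The miR-315 line runs nearest to miR-92-3p, at a distance of 2.12 log2 units, and the other 4 dashed lines stand at 6.75 or more.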

How the data were processed

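Whole mites were pooled by stage into 1 library each, a 15% gel selected RNAs of 18 to 30 nucleotides, and stages were taken from the developmental stage label, per the labels' protocols. Each deposited list pairs a known miRNA name with its sequence, its read count and a normalized value, per the file headers. The counts are whole numbers of at least 1, and the deposited normalized values are RPM: count divided by RPM gave 1 constant library total per library. How reads were matched to names, and to which reference, is not given in the sources used here; a missing row does not show absence.

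Counts were scaled to listed reads, and sequence groups, ratios and intervals were computed with Python 3.11.15 and SciPy 1.17.1. Names without a row were set to 3 reads, giving approximate bounds without intervals. The call rule was tested on simulated Poisson counts with known ratios. These held no PCR copies and no spread between libraries, so that test covers counting error alone. Alternatives were the library totals, totals without miR-1, TMM (edgeR 4.0.16), median-of-ratios factors over the 140 groups with a row in all libraries, other minimum reads, floors and overlaps. Named are all miR-92 and same-seed names, the 5 nearest profiles, and up to 2 groups on either side of miR-92-3p in the embryo. Groups singled out elsewhere were chosen after their values were seen. Members and lists were chosen with earlier results of these data known.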

Additional observations from a re-analysis of the deposited data

How the results depend on the processing

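No paired analysis was possible because each stage had 1 library. Leaving out a replicate was not possible for the same reason. The family share was 0.856%, 0.0266%, 0.0170% and 0.00130% of the library totals from embryo to adult, and 25.6%, 0.313%, 0.163% and 0.0332% of listed reads without miR-1. All calls of the miR-92-3p and miR-92f-3p groups held under the 5 scalings, the other minimum reads and floor, and overlaps of 15 and 19 bases. With 1 mismatch allowed, miR-92f-3p joined miR-92-3p, giving it no value of its own, and the joined nymph over larva ratio was 0.514, not called. The miR-92f-3p nymph over larva ratio was 2.06 with the library totals, not called. The family ratio of nymph over larva was called lower with TMM (0.448) and median-of-ratios scaling (0.460), and was 0.639 with the library totals, not called.

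The miR-92h-3p group, under 30 reads in every comparison, had a larva over embryo ratio of 0.196, called lower with a minimum of 10 reads or none. That ratio was 0.899 by name, 0.802 under the library totals, 0.510 under TMM and 0.601 under median-of-ratios scaling. Its adult over embryo ratio by name was 1.13. The by-name values set an embryo with no miR-92h-3p row at 3 reads.

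Over all groups, larva over embryo had 16 higher and 34 lower calls in listed RPM, against 34 and 3 under the library totals, 28 and 3 under TMM and 32 and 3 under median-of-ratios scaling. Adult over nymph had 9 and 9, against 0 and 39, 3 and 21, and 2 and 24 in the same order. Higher calls of nymph over larva were 11, against 17 with the library totals, and lower calls of adult over embryo were 7, against 4 with the library totals and 4 with median-of-ratios scaling. The adult values rest on 77 miR-92 reads, at a library total close to those of the other stages.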

Other observations

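The embryo library listed the most miR-92 names, 10, at library totals that were nearly equal. The reads of the family itself were spread over fewer names in the embryo when their number was matched. Thinned to the 77 miR-92 reads of the adult library, the expected number of names was 2.05 in the embryo, 2.65 in the larva and 3.30 in the nymph, beside 3 in the adult. These expectations follow from the counts without resampling and carry no interval. They restate the makeup given above, where the miR-92-3p group held 96.9% of miR-92 reads in embryos.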
